A study of Mus musculus with 4 samples.

Results

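Mid1, its paralogue Mid2 and the genes of 2 proteins that bind MID1, Mid1ip1 and Igbp1, were followed in newborn mouse brain with and without the transcriptional repressor CIC (capicua). The 4 genes were taken by name from a table of 20793 gene rows, and each had 1 row. Mid1 was chosen by its measured values, an FPKM about 5-fold higher in both knockout libraries, so these values are a description and are given with no test. The other members were picked for their relation to Mid1, and their rows were tested.

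RNA from brain at postnatal day 1 was sequenced in 4 libraries, 2 of WT and 2 of CIC knockout animals, and each pair carried the letters A and B. The knockout genotype was Nes-Cre;CIClox/lox, in which Cre recombinase under Nestin regulatory sequence removes a loxP-flanked part of Cic in neural progenitors and in the neurons and glia that come from them. Cells of other origin in the brain, such as microglia and blood cells, do not come from these progenitors. The WT libraries were titled as CIC L/L animals without Cre, whereas their genotype was entered as Nes-Cre;CIC+/+, so that their exact alleles are uncertain. The labels do not say whether the 2 libraries of a group came from separate animals, and p-values therefore measure only the spread between these samples. Levels are in FPKM (fragment counts scaled by transcript length and by the mapped fragments of the library).

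MID1 (TRIM18) is a RING-type ubiquitin ligase of the TRIM family that sits on microtubules, and loss-of-function mutations of the human gene cause X-linked Opitz G/BBB syndrome, a disorder of midline development. It binds the IGBP1 protein (alpha4), a non-canonical subunit of PP2A-type phosphatases, and through it targets the catalytic subunit of PP2A for degradation. MID2 (TRIM1) is a close paralogue that also binds microtubules and IGBP1, and MID1IP1 (MIG12) joins MID1 on microtubules and also promotes polymerization of acetyl-CoA carboxylase. In common laboratory mice the 3′ end of Mid1 lies in the pseudoautosomal region, which X and Y share.

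All 4 genes were X-linked. In mm9 coordinates of the deposited table, Mid1 ran from 166123179 to 166428729, Mid2 from 137212567 to 137302254, Mid1ip1 from 10294491 to 10296828 and Igbp1 from 97689630 to 97711464. None overlapped another row of the table. GENCODE M21 (GRCm38) lists 15 Mid1 transcripts, of which 8 are protein-coding, and 5 Mid2 transcripts, of which 4 are protein-coding. The longest coding sequences of Mid1 and Mid2, with 2040 and 2145 bases, were identical at 69.8% of 2036 aligned bases, and their longest exact shared run was 17 bases. Igbp1 has an intronless relative, Igbp1b, on chromosome 6, whose coding sequence was identical to that of Igbp1 at 73.5% of aligned bases with a longest shared run of 21 bases. The Igbp1b row stayed between 0.629 and 0.741 FPKM in the 4 libraries. The sources used here do not say how fragments that match more than 1 place were assigned.

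RefSeq places the start of Mid1 at 3 positions, and the gene-level FPKM does not tell which of them was used. The windows from 250 bases before to 50 bases after each start, and that of Mid2 for comparison, are shown because CIC is a DNA-binding repressor and Mid1 and its paralogue differed in their values. The sequences are those of RefSeq on GRCm38.p6, plus strand, and capitals mark the 6 bases TGAATG on either strand, which begin the 8-base CIC sites TGAATGAA and TGAATGGA.
Mid1 start 1, chrX:169684949-169685248: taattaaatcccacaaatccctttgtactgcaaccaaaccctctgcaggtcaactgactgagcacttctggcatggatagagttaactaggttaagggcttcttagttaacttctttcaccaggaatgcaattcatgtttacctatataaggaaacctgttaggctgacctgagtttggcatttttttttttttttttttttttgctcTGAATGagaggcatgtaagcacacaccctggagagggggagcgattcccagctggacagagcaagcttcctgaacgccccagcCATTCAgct
Mid1 start 2, chrX:169827909-169828208: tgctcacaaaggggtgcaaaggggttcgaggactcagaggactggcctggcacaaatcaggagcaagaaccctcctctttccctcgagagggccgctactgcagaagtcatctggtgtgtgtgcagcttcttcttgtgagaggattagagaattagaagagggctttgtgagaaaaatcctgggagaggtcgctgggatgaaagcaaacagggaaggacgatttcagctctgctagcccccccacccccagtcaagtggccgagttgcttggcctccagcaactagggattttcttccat
Mid1 start 3, chrX:169879369-169879668: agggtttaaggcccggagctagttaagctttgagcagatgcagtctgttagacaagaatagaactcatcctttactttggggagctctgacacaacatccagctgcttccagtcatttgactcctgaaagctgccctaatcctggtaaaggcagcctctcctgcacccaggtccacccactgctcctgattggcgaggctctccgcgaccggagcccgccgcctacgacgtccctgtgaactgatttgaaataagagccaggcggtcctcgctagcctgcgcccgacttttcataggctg
Mid2, chrX:140664706-140665005: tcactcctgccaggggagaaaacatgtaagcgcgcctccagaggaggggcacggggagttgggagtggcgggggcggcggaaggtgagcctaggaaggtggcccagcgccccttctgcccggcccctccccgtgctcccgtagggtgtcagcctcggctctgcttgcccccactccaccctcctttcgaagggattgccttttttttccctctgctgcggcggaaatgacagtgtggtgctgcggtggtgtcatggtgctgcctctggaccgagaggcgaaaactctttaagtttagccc
None of the 8-base sequences TGAATGAA, TGAATGGA, TCAATGAA and TCAATGGA was found on either strand in these windows or in those of Mid1ip1 and Igbp1, against 3.84% of 32851 windows of all genes. The 6-base TGAATG, which is part of the former pair of 8-base sequences and was searched after the Mid1 windows had been seen, occurred at 2 places around start 1 of Mid1. It began 42 bases before the start on the plus strand, continued as TGAATGAG, and lay again 41 bases after the start on the minus strand, continued as TGAATGGC. The other windows of the 4 genes held no copy. Of all windows, 12.7% had at least 1 copy and 1.28% had 2 or more. These matches are letters in a window and were not tested for binding.

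The libraries differed in more than Cic. The targeted gene itself had 51.3 and 56.4 FPKM in the WT pair against 19.1 and 22.2 FPKM in the knockout pair. Both knockout libraries were thus lower, as labelled. The knockout minus WT log2 difference of Cic was -1.34 ± 0.12 (SE). By limma with Benjamini-Hochberg adjustment over all tested rows, its adjusted p was 0.213. Cic therefore did not pass the test used for the genes below, and failing that test does not show equal levels. Summed FPKM of 4 Y-linked genes (Ddx3y, Eif2s3y, Kdm5d and Uty) was 48.6, 61.4 and 55.8 for WT A, WT B and knockout A but 0.0323 for knockout B, where Kdm5d and Uty were listed at 0. Markers of brain cell types were present in all libraries, and several of their sums moved with the groups. Choroid plexus markers summed to 152 and 493 FPKM in the WT pair against 979 and 1050 FPKM in the knockout pair, and for 6 of 6 tested genes the knockout pair lay above the WT pair without overlap, as it did for 27.1% of the 12703 rows tested (mean of 1 FPKM or more). Cerebellum and hindbrain markers summed to 23.7 and 28.8 FPKM in the WT pair, with 58.7 FPKM for knockout A and 144 FPKM for knockout B (En1, En2, Hoxb3 and Hoxb5 were listed at 0 in at least 1 library). In knockout A, Zic1, Zic2 and Zic4 held nearly all of the sum, at 28.6, 21.9 and 8.16 FPKM. Barhl1, En1, En2, Hoxb3 and Hoxb5 were at most 0.0835 FPKM there, against 3.55 to 11.4 FPKM in knockout B. For 3 of 7 tested genes the knockout pair lay above the WT pair without overlap, beside 27.1% of all tested rows. Excitatory cortical neuron markers summed to 675 and 708 FPKM in the WT pair, with 497 FPKM for knockout A and 294 FPKM for knockout B, and for 7 of 8 the knockout pair lay below the WT pair without overlap, as it did for 21.7% of all tested rows. Sums for microglia (60.1 and 69.1 against 75.7 and 119 FPKM) and meninges (72.0 and 101 against 118 and 124 FPKM) were higher in the knockout pair, with no marker at 0. Without overlap, 4 of 7 microglia genes and 4 of 6 meninges genes were higher, beside 27.1% of all tested rows. The rest overlapped, among them P2ry12 (3.17 and 1.95 against 1.97 and 1.82 FPKM). Radial glia and astrocyte (927 to 1035 FPKM), inhibitory neuron (181 to 251 FPKM), oligodendrocyte lineage (97.4 to 106 FPKM) and endothelial sums (80.7 to 97.7 FPKM) varied less. In that order, 4 of 8, 3 of 7, 3 of 7 and 2 of 6 tested genes were higher without overlap, beside 27.1% of all tested rows. Within the glial sum, Apoe was higher (200 and 223 against 313 and 379 FPKM). Fabp7 was lower there (508 and 495 against 472 and 383 FPKM). Blood markers ranged from 9.53 FPKM in knockout A to 703 FPKM in knockout B. The Hba-a1 and Hba-a2 rows were listed at 0 in knockout A and in no other library, so the low sum there rests on these zeros. Alas2 had 8.88 and 5.76 FPKM in the WT pair, with 9.25 FPKM for knockout A and 40.1 FPKM for knockout B.

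Mid1 was far higher in knockout brain. It had 13.7 FPKM in WT A and 13.7 FPKM in WT B, against 66.0 FPKM in knockout A and 81.2 FPKM in knockout B. Both knockout libraries lay well above both WT libraries, which were almost equal. The means were 13.7 ± 0.0374 FPKM for WT and 73.6 ± 10.7 FPKM for the knockout (SD, n = 2 each), a ratio of 5.37. Taken singly, knockout A was at 4.81 times and knockout B at 5.92 times the WT mean. On the log2(FPKM + 1) scale, which slightly understates such ratios, the knockout minus WT difference was 2.33. As a background, 27.1% of all tested rows had both knockout values above both WT values. In whole brain, more cells with Mid1 RNA and more Mid1 RNA per cell cannot be told apart.

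**Figure D1:**
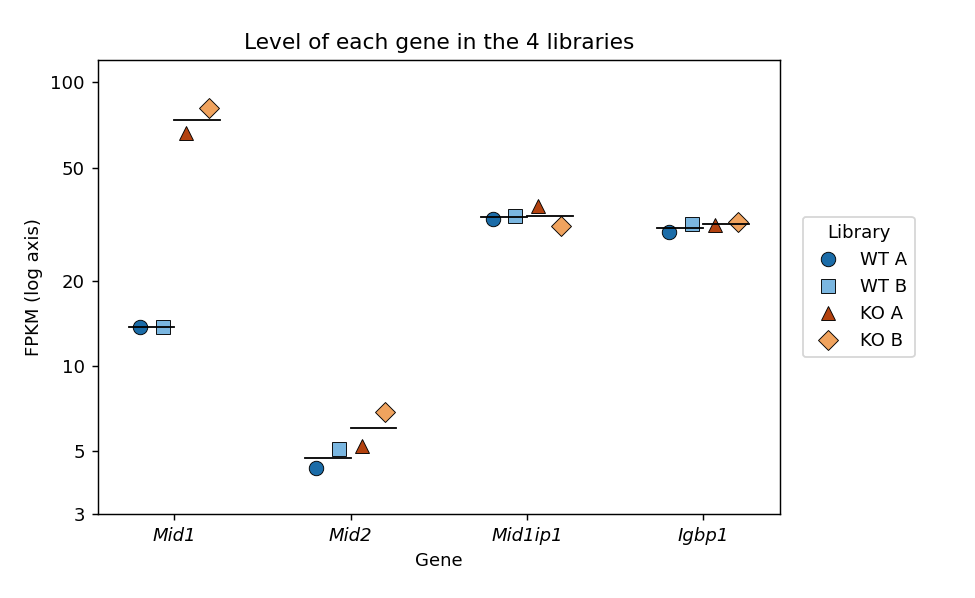
FPKM (log axis) of Mid1, Mid2, Mid1ip1 and Igbp1 in the 4 libraries, with a horizontal line at the mean of each pair. Mid1 moves from 13.7 FPKM in both WT libraries to 66.0 and 81.2 FPKM in the knockout libraries, while Mid1ip1 and Igbp1 lie between 29.7 and 36.5 FPKM and Mid2 stays below 7 FPKM.

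In level, Mid1 stood in the middle of the expressed genes in WT and near their top in knockout brain. It ranked 5916 and 5918 from the top among 12703 tested rows in the WT libraries, and 1261 and 953 in knockout A and knockout B. Of all tested rows, 5 had a larger positive difference (Dag1, Avp, Hmox1, Tcf7l2 and Etv4, named after their values were seen). Dag1 was listed at 0 in WT A, Avp was at 4.36 FPKM in WT A and 0.281 in WT B, and Hmox1 and Tcf7l2 were much higher in knockout B than in knockout A. Among the 443 tested X-linked rows the Mid1 difference was the largest. Their median log2 difference was 0.02, like the 0.02 of the other rows. The knockout libraries differed from each other in Mid1 by 0.295 on the log2 scale, where the median row differed by 0.19, and the WT libraries by 0.00518, where the median row differed by 0.0673.

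**Figure D2:**
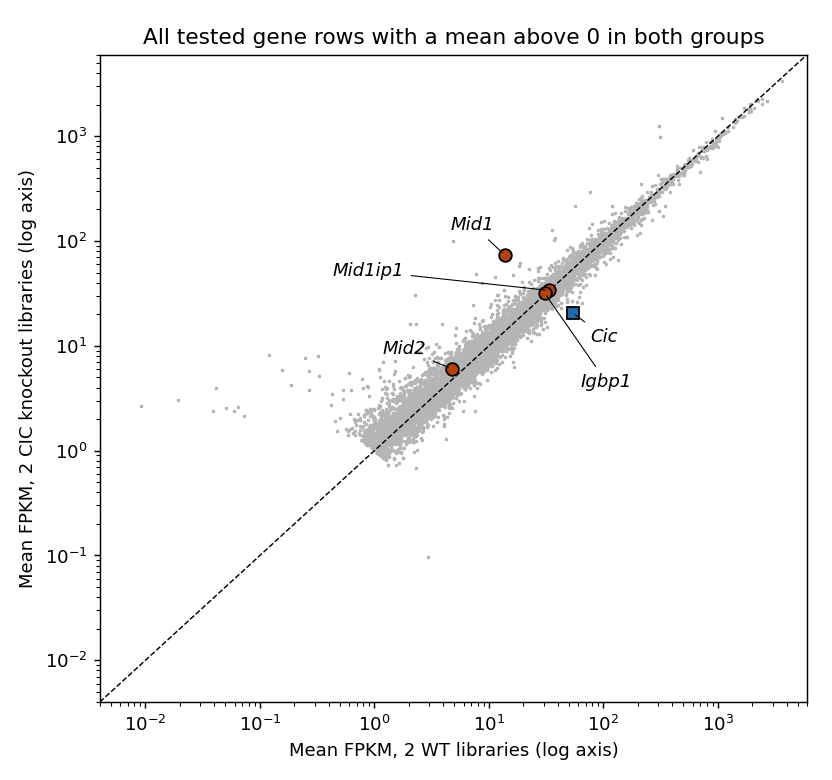
Mean FPKM of the 2 WT libraries (x, log axis) against that of the 2 CIC knockout libraries (y, log axis) for 12697 tested rows. Another 6 rows with a mean of 0 in a group are not drawn, and the dashed line marks equal means. Mid1 (13.7 and 73.6 FPKM) lies above the cloud, Cic (53.8 and 20.7 FPKM) below it, and Mid2, Mid1ip1 and Igbp1 within it.

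Mid2, the paralogue with a like domain order, was the least expressed of the 4 genes. It had 4.36 FPKM in WT A and 5.08 FPKM in WT B, against 5.23 FPKM in knockout A and 6.87 FPKM in knockout B. Knockout A was barely above WT B, and knockout B stood somewhat higher. The means were 4.72 ± 0.512 and 6.05 ± 1.16 FPKM (SD, n = 2 each). The log2 difference was 0.29 ± 0.15 (SE), and by limma with Benjamini-Hochberg adjustment over all tested rows the adjusted p was 0.547. The 95% interval of the difference ran from 0.925-fold to 1.62-fold on the FPKM + 1 scale. Mid2 did not pass the 0.05 threshold, which 0.0236% of tested rows passed as higher and as many as lower. With knockout A left out the difference was 0.46, and with knockout B left out it was 0.12. Each of these rests on a lone knockout library.

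Mid1 had 3.15 and 2.69 times the FPKM of Mid2 in the WT libraries, and 12.6 and 11.8 times in the knockout libraries. Mid1 made up 75.9% and 72.9% of their summed FPKM in WT, and 92.7% and 92.2% in knockout brain. Together they had 18.1 and 18.8 FPKM in the WT pair against 71.3 and 88.1 FPKM in the knockout pair. These ratios contain the Mid1 values that chose the gene and are given without a test.

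The library differences stood beside these values as follows. Among the 3 libraries with Y-linked RNA, Mid1 was at 4.81 times the WT mean in knockout A, and Mid2, Mid1ip1 and Igbp1 were at 1.11, 1.09 and 1.03 times. In knockout B, the library without it, Mid1 was at 5.92 times the WT mean and Mid2 at 1.45 times. Choroid plexus markers summed to 152 and 493 FPKM in the WT pair against 979 and 1050 FPKM in the knockout pair. Mid1 had 13.7 and 13.7 FPKM against 66.0 and 81.2 FPKM. The part of the marker shifts and of the Y-linked difference in the Mid1 and Mid2 values was not tested.

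**Figure D3:**
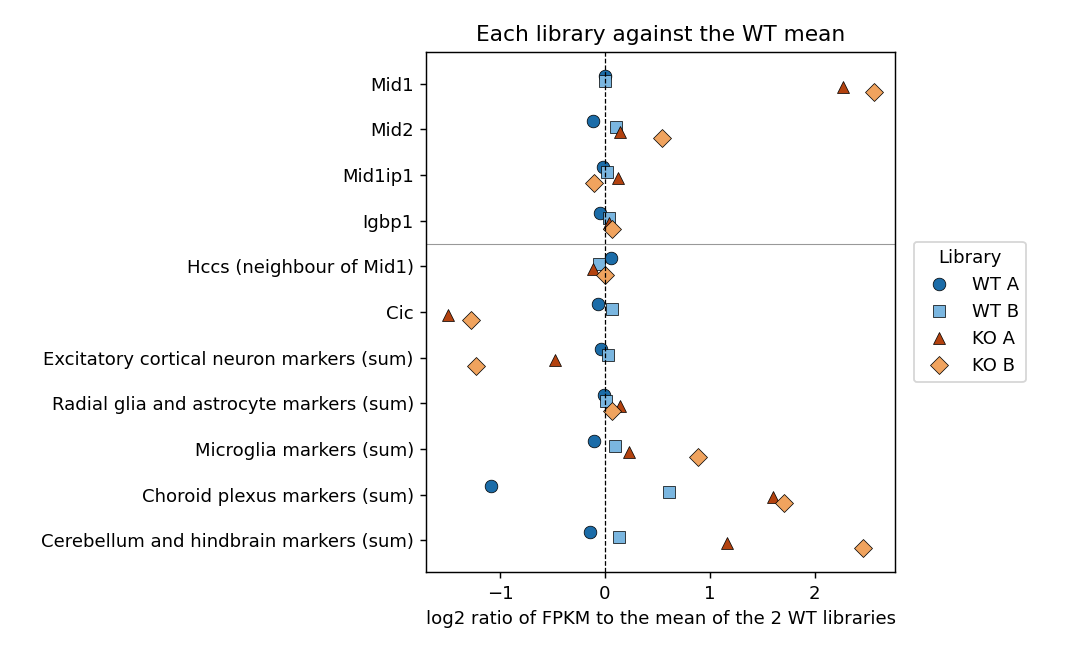
Log2 ratio of FPKM in each library to the mean of the 2 WT libraries, for the 4 genes, for Hccs and Cic, and for summed markers of 5 cell types or regions. Mid1 is high in knockout A and knockout B alike. So is the choroid plexus sum, at 979 and 1050 FPKM against 152 and 493 FPKM in the WT pair. The cerebellum and hindbrain, microglia and cortical neuron sums are farther from WT in knockout B than in knockout A.

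Igbp1, which encodes the alpha4 adaptor between MID1 and PP2A-type phosphatases, did not pass the test. It had 29.7 FPKM in WT A and 31.6 FPKM in WT B, against 31.4 FPKM in knockout A and 32.1 FPKM in knockout B. The values of the groups overlapped. The difference came to 0.05 ± 0.09 (log2, SE), limma's adjusted p to 0.831, and the 95% interval ran from 0.873-fold to 1.23-fold. Igbp1 had 2.16 and 2.31 times the FPKM of Mid1 in the WT libraries, and 0.476 and 0.395 times in the knockout libraries, so the order of the 2 levels was inverted.

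Mid1ip1, which encodes the MID1 partner on microtubules, did not pass either. Its values were 33.0 FPKM in WT A and 33.8 FPKM in WT B, against 36.5 FPKM in knockout A and 31.0 FPKM in knockout B. The knockout values lay on either side of the WT values. The difference came to 0.01 ± 0.12 (log2, SE), limma's adjusted p to 0.973, and the 95% interval ran from 0.815-fold to 1.25-fold. Mid1ip1 stood next to Igbp1 in the order of levels. In the WT pair the means were 33.4 ± 0.588 and 30.7 ± 1.33 FPKM (SD, n = 2 each), farther apart than either SD. In the knockout pair they were 33.8 ± 3.86 and 31.8 ± 0.467 FPKM, closer than the SD of Mid1ip1 but not that of Igbp1, and in knockout B Igbp1 was the higher. Mid1 was below both in the WT libraries and above both in the knockout libraries, and Mid2 was lowest in all 4.

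The catalytic subunits of the phosphatases that IGBP1 binds had nearly the same levels in both groups. Ppp2ca, the main PP2A catalytic subunit and the known indirect target of MID1 as a protein, had 264 and 247 FPKM in the WT pair against 245 and 254 FPKM in the knockout pair. Ppp2cb had 90.9 and 89.6 against 88.9 and 94.4 FPKM. Ppp4c had 55.2 and 52.4 against 53.6 and 53.4 FPKM, and Ppp6c had 30.6 and 31.6 against 30.1 and 30.2 FPKM. Their 4 log2 differences lay between -0.0451 and 0.0212, and none passed, with a lowest adjusted p of 0.842 by limma. Of all tested rows, 0.0236% passed in each direction. RNA levels do not show the amount of PP2A protein.

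Of 15 scaffold and regulatory genes of these phosphatases, all were tested and 0 passed, beside 0.0236% of all tested rows in each direction. The median log2 difference of the 15 genes was -0.0234, beside 0.0166 over all rows. In 4 of them both knockout values lay above, and in 4 below, both WT values, where 27.1% and 21.7% of all tested rows did so. Ppp2r2d, a B55-type regulatory subunit, had 45.8 and 43.2 FPKM in the WT pair, with 46.4 FPKM for knockout A and 58.3 FPKM for knockout B (log2 difference 0.22 ± 0.14, SE). Ppp2r1b, a scaffold subunit, had 16.0 and 14.6 FPKM in the WT pair against 13.5 and 12.7 FPKM in the knockout pair (-0.20 ± 0.10). With knockout A left out, Ppp2r2d was called higher and Ppp2r2b, another B55-type subunit, lower. In that fit, which takes its spread from the WT pair, 33.9% of all tested rows were called.

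The mTORC1 pathway, which in human cells depends on MID1 and IGBP1 through PP2A, had 13 of 14 genes tested and 0 passed. The median log2 difference was -0.0145, and 0.0236% of all tested rows passed in each direction. Eif4ebp1, a translational repressor that mTORC1 phosphorylates, was level in 3 libraries (2.88 and 3.14 FPKM in the WT pair and 3.33 FPKM for knockout A) and higher in knockout B at 8.72 FPKM. Rheb, the GTPase that activates mTORC1, had 67.8 and 67.9 FPKM in the WT pair against 65.2 and 56.4 FPKM in the knockout pair. Mtor itself had 15.0 and 15.4 against 15.5 and 14.5 FPKM. With knockout A left out, Eif4ebp1 and Tsc1, a subunit of the complex that inhibits Rheb, were called higher.

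Other TRIM ligases with the COS box of MID1, and related ones, did not pass. Of 7 listed, 4 were tested and 0 passed, beside 0.0236% of all tested rows in each direction. Trim9, a neuronal ligase that acts in netrin-dependent branching, had 33.0 and 35.6 FPKM in the WT pair against 39.2 and 40.2 FPKM in the knockout pair (log2 difference 0.21 ± 0.10, SE, limma's adjusted p of 0.531). Trim67, its close relative, had 79.3 and 82.2 against 75.5 and 64.8 FPKM (-0.20 ± 0.11). The muscle ligase genes Trim54, Trim55 and Trim63 were below 1 FPKM in every library and were not tested. Trim67 and Trim46 were called lower without knockout A.

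Reported MID1 substrates and proteins of its complexes had 7 of 7 genes tested and 0 passed. Their median log2 difference was -0.144, and 0.0236% of all tested rows passed in each direction. Both knockout values lay below both WT values in 5 of the 7 and above them in 1, beside 21.7% and 27.1% of all tested rows. Stk36, the Fused homologue that MID1 ubiquitylates in human cells, had 5.59 and 4.73 FPKM in the WT pair against 4.54 and 3.83 FPKM in the knockout pair (-0.25 ± 0.13, limma's adjusted p of 0.541). Anxa2, encoding a calcium-dependent phospholipid-binding protein, had 22.5 and 29.5 against 30.9 and 40.5 FPKM (0.44 ± 0.20). Spag5 had 2.74 and 2.83 FPKM in the WT pair, with 2.40 FPKM for knockout A and 4.18 FPKM for knockout B, on either side of them. Hmg20b had 7.78 and 7.54 FPKM in the WT pair, with 7.40 FPKM for knockout A and 5.70 FPKM for knockout B.

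Hedgehog pathway genes, included because MID1 acts on Fused and GLI3 in human cells, had 7 of 9 tested and 0 passed. The median log2 difference was 0.137, and 0.0236% of all tested rows passed in each direction. The knockout pair lay above the WT pair without overlap for 3 genes and below it for 1, beside 27.1% and 21.7% of all tested rows. Ptch1, the Hedgehog receptor and a transcriptional target of the pathway, had 8.47 and 8.34 FPKM in the WT pair against 11.6 and 12.9 FPKM in the knockout pair (0.49 ± 0.10, limma's adjusted p of 0.417). Gli3 had 2.11 and 2.33 FPKM in the WT pair. It was below both in knockout A at 1.85 FPKM and above both in knockout B at 3.32 FPKM.

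Genes of fatty acid synthesis, the pathway in which MID1IP1 acts, had 9 of 10 tested and 0 passed. Their median log2 difference was -0.0174, and 0.0236% of all tested rows passed in each direction. Acaca, the acetyl-CoA carboxylase that MID1IP1 polymerizes, had 35.7 and 37.5 FPKM in the WT pair against 34.6 and 34.2 FPKM in the knockout pair. Thrsp (Spot 14), the paralogue of Mid1ip1, had 4.57 and 5.75 against 3.70 and 2.67 FPKM (-0.56 ± 0.17, limma's adjusted p of 0.470). Scd1, a stearoyl-CoA desaturase, had 11.1 and 13.9 against 17.4 and 17.5 FPKM (0.46 ± 0.13, adjusted p of 0.470). The elongase gene Elovl6 had 17.3 and 17.7 FPKM in the WT pair, with 17.1 FPKM for knockout A and 13.9 FPKM for knockout B.

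Microtubule-associated proteins had 17 of 17 genes tested and 0 passed, beside 0.0236% of all tested rows in each direction. The median log2 difference of the 17 genes was -0.0976. In 3 of them both knockout values lay above, and in 6 below, both WT values, beside 27.1% and 21.7% of all tested rows. Dcx, doublecortin of migrating neurons, had 241 and 253 FPKM in the WT pair, with 228 FPKM for knockout A and 152 FPKM for knockout B (-0.40 ± 0.21, limma's adjusted p of 0.547). Stmn1, a tubulin-sequestering protein, had 2685 and 2641 FPKM in the WT pair, with 2416 FPKM for knockout A and 1875 FPKM for knockout B (-0.32 ± 0.15). For both genes knockout B held most of the difference. Dclk1 had 131 and 137 FPKM in the WT pair, with 127 FPKM for knockout A and 105 FPKM for knockout B. Map2 had 224 and 234 FPKM in the WT pair, with 226 FPKM for knockout A and 173 FPKM for knockout B.

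**Figure D4:**
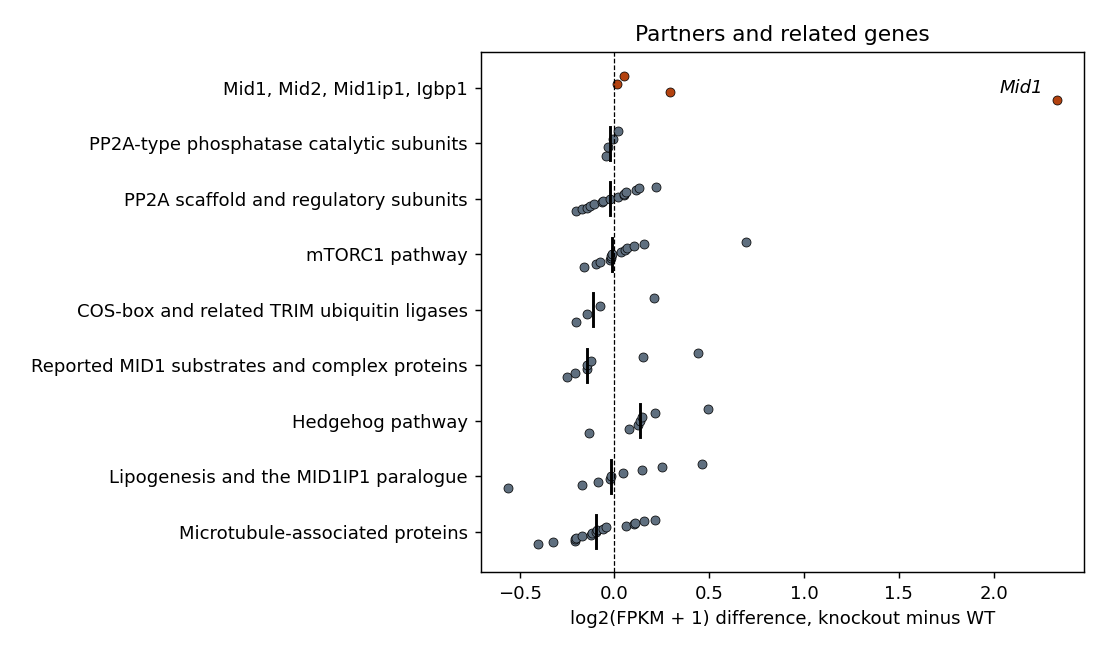
Knockout minus WT difference in log2(FPKM + 1) for Mid1, Mid2, Mid1ip1 and Igbp1 (top row) and for each tested gene (points) of 8 lists of partners and related genes, with the list median as a vertical bar. The medians lie between -0.144 and 0.137, the genes of the lists between -0.561 and 0.695, and Mid1 at 2.33.

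On the X chromosome, the 3 other rows within 1 Mb of Mid1 all had lower coordinates, and none lay beyond its other end. Their knockout values overlapped the WT values or lay below them. Hccs, encoding holocytochrome c synthase, had 13.3 and 12.3 FPKM in the WT pair against 11.9 and 12.8 FPKM in the knockout pair (log2 difference -0.05 ± 0.10, SE, limma's adjusted p of 0.850). Arhgap6 had 0.637 and 0.646 against 0.722 and 0.491 FPKM. Amelx, the enamel gene within it, had 1.01 and 0.615 against 0.506 and 0.193 FPKM. The latter pair were below the filter of 1 FPKM and were not tested.

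The rows whose 4 values were most like those of Mid1, by Euclidean distance in log2(FPKM + 1) after subtraction of the WT mean, were Spred3 (distance 0.419), Etv4 (0.422), Vgf (0.627), Calcr (0.719) and Otp (0.817). Since all share the 4 libraries with Mid1 and the measure favours any row with a large positive difference, the likeness is a description over 4 values. Spred3, an inhibitor of Ras-ERK signalling, had 8.10 and 9.13 FPKM in the WT pair against 38.2 and 40.4 FPKM in the knockout pair. Etv4, an ETS factor and a known CIC target, had 7.84 and 7.43 against 51.4 and 45.0 FPKM. Vgf, a neuropeptide precursor gene, had 16.1 and 13.9 against 79.5 and 58.0 FPKM. In Etv4 and Vgf, unlike Mid1, knockout A was the higher knockout library. The calcitonin receptor gene Calcr and the hypothalamic homeobox gene Otp were much lower, at most 4.96 and 6.18 FPKM. The nearest rows to Mid2, Mid1ip1 and Igbp1 were Mmp28 (0.0338), Xpr1 (0.00746) and Paf1 (0.016).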

How the data were processed

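RNA-seq of mouse brain was deposited as 1 FPKM value per gene row and library by the authors, and the unit was inferred from the tools and the values. Of tools, TopHat2 2.0.11, Cufflinks 2.1.1, bcl2fastq 2.17 and cutadapt appear in the submitters' processing notes, with mm9 as the build and without settings. Total depth is unknown because the files hold no counts. Relative depth, read from the most common ratio between libraries of values under 0.15 FPKM, lay between 1 and 1.22 times that of WT A.

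Groups were taken from the description labels. Values were analysed as log2(FPKM + 1) for 12703 rows with a mean of 1 FPKM or more. The contrast of knockout and WT used limma 3.58.1 and R 4.3.3 (lmFit and eBayes, trend and robust off, two-sided, Benjamini-Hochberg adjustment over all tested rows, threshold 0.05), with 2.63 prior and 2 residual degrees of freedom. Since exact permutation of 2 against 2 libraries reaches no two-sided p below 0.333, the adjusted p rests on the spread shared across rows. The 4 genes, 8 lists of related genes and 11 marker lists were chosen with earlier results of these data known. Genes named from a list are the catalytic PP2A subunits, those past the threshold, and otherwise the 2 with the largest difference; Mtor, Acaca, the genes below the filter and those called only without knockout A were added after their values were seen. One gene that this rule names is not reported here. Starts of the deposited mm9 intervals were raised by 1, and no coordinate was carried between builds. Coding sequences were aligned globally with Biopython 1.88. Alternatives changed the pseudocount, filter, scaling, trend option, replicate block, and left out each library or the 13 rows listed at 0 beside 10 FPKM or more.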

Additional observations from a re-analysis of the deposited data

How the results depend on the processing

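The log2 difference of Mid1, whose direction the choice of the gene fixes, was 2.33. It came to 2.41 with a pseudocount of 0.1 and 2.06 with a pseudocount of 5, which damps it by construction, and 2.19 to 2.48 with 1 library left out. Mid2 was higher in knockout brain under all alternatives. Leaving out 1 library gave Mid2 0.12 to 0.46. Its adjusted p by limma was 0.483 to 0.702 under the alternatives that kept all 4 libraries. Igbp1 stayed between 0.01 and 0.09 and was not called. The Mid1ip1 difference of 0.01 changed sign with libraries rescaled to equal medians (-0.0023) and, with 1 library left out, ran from -0.10 to 0.12. It was not called under any alternative.

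Over all rows, 3 were called higher and 3 lower. Higher calls numbered 1 with a pseudocount of 0.1 and 1 with no filter on low values. Without the rows listed at 0 beside 10 FPKM or more, 0 were called higher and 0 lower by limma, with 1299 rows at an unadjusted p under 0.05. With 1 library left out, 1 to 2269 were called higher and 3 to 2036 lower. The largest counts came without knockout replicate A. In that fit 33.9% of all tested rows and 17 of 76 tested members of the 8 related lists were called (among them Ptch1, Thrsp, Dcx and Stmn1), against 0 under any other alternative. With the replicate letter as a block, 4 rows were higher and 3 lower. The labels do not say whether the same letter marks a pair of libraries. The deviations of same-letter libraries correlated at -0.0135 over the tested rows. That value cannot decide the question, since it also holds all other differences between the libraries of a group. The 2 libraries per group and the unknown depth limit all of these values.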
